A study of Mus musculus with 6 samples.

Results

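Genes that mark resident tissue macrophages or encode scavenger receptors were followed in whole Achilles tendon repair tissue of neonatal mice. The set was Marco, Cd163, Stab1, Lyve1, Timd4, F13a1, Siglec1, Fcna, Mgl2 and Folr2, which are 10 of the 18099 genes with reads summed here. The 10 genes were chosen by name after the read counts of this same contrast had been seen, so their differences between the groups are a description. Where it is said how many of them passed the threshold over all genes, that too describes the fit and is no independent test. The study compared 3 LysM-Cre; Ampkα1fl/fl mice with 3 Ampkα1fl/fl littermates as controls, and all 6 were neonatal. The Achilles tendon of each leg was transected, and the repair tissue was collected 7 days later. Both groups carried the floxed Ampkα1 alleles, and only the first group carried Cre, which is made from the lysozyme M locus and acts in myeloid cells at large (monocytes, macrophages and granulocytes), not in resident macrophages alone. Below, the 2 groups are called the Cre mice and the control mice, and each library came from 1 mouse.

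Resident macrophages live in a tissue before injury and clear dying cells, free haemoglobin, modified lipoproteins and matrix fragments through a broad set of surface receptors. Scavenger receptors bind many ligands of this kind, whereas receptors such as the one encoded by Timd4 bind a single signal, the phosphatidylserine exposed by dying cells. In many tissues, macrophages near blood vessels carry the products of Lyve1, Folr2, Cd163 and F13a1 together. Csf1r encodes the receptor for the growth factor that macrophages need to survive, and Cd68 encodes a lysosomal glycoprotein of macrophages. Both served here as references for macrophage RNA.

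RefSeq promoter windows (GRCm38.p6, 250 bases before the start site, written 5′ to 3′ along the gene) were found for 8 of the 10 genes, with 10 windows in all, and not for Lyve1 and Siglec1. The windows of Marco, Stab1 and Fcna are shown as examples with a motif match, and those of F13a1 and Folr2, the genes with the highest levels per length in the control mice, as examples without one. For F13a1 and Folr2 the window next to the start of the most abundant transcript is shown. Capitals mark GAGGAA, the core of the site bound by PU.1, a transcription factor of myeloid cells, searched on both strands.
Marco, chr1:120505025-120505274, minus strand: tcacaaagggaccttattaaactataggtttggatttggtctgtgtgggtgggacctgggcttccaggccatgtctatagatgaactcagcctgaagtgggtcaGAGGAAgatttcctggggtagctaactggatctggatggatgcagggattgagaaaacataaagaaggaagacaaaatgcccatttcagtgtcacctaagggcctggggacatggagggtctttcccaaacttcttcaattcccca
Stab1, chr14:31168642-31168891, minus strand: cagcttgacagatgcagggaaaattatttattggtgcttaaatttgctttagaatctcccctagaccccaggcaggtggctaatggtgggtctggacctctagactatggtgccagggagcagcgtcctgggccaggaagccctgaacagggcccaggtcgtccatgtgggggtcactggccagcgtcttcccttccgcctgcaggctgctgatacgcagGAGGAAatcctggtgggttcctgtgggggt
F13a1, chr13:37049214-37049463, minus strand: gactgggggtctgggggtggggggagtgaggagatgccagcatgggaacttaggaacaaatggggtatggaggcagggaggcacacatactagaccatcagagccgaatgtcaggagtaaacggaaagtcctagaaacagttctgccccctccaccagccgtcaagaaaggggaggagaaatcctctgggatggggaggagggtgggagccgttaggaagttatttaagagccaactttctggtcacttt
Fcna, chr2:25627975-25628224, minus strand: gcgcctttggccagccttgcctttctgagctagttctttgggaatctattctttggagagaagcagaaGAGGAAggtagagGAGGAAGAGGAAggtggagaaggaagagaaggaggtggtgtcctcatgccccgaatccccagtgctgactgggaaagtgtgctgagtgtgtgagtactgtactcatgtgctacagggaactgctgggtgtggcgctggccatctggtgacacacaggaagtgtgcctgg
Folr2, chr7:101845332-101845581, minus strand: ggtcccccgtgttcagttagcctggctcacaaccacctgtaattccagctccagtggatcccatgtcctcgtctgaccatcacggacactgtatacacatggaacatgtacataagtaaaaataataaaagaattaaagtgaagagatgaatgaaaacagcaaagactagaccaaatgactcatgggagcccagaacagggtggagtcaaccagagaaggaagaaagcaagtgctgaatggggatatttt
The core was present in the windows of 5 of the 8 genes (Marco, Stab1, F13a1, Fcna and Mgl2), or 5 of 10 windows, compared with 23.3% of all 32851 windows. Its first base lay 146 bases before the start in Marco, 30 in Stab1 and 225 in Mgl2, and Fcna held 3 copies, at 182, 169 and 163 bases, the latter 2 directly adjoining. Distances are counted to the start site at the window's end, which in Fcna and Mgl2 was not that of the most abundant transcript. That transcript began inside the window, at chr2:25628030 in Fcna and at chr11:70130329 in Mgl2. In F13a1 the match was in the other window, farther from the start of the most abundant transcript. The MAF recognition motif TGCTGAC, present in 3.81% of all windows, was found in Timd4 (45 bases before the start, opposite strand) and Fcna (107 bases). Neither the interferon-stimulated response element (2.98% of all windows) nor the C/EBP motif TTGCNNCAA (1.74%) was found in a window of the 8 genes. These matches describe letters in the windows and no binding was measured.

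The libraries held between 18170081 and 18858376 reads in the control mice and between 18076812 and 19479895 in the Cre mice. Levels are given as CPM, the reads of a gene scaled by the TMM-adjusted library total. Tendon markers were abundant in every library, with Tnmd between 1546 and 2049 CPM. The targeted gene Prkaa1, which encodes AMPKα1, was at 38.2 ± 0.842 CPM (SD, n = 3) in the control mice and 36.2 ± 4.07 in the Cre mice (log2 fold change -0.08, SE 0.09, edgeR adjusted p = 0.744), and its groups overlapped. This is the level in whole tissue, whereas Cre acts in myeloid cells, so it cannot show how far the gene was deleted in them. The paper reports checking the knockout by genotyping PCR and western blotting. Lyz2, the gene at the Cre locus, had between 7372 and 7778 reads in the control libraries and 9, 15 and 8 in the Cre libraries (edgeR adjusted p = 3.41e-06). The summed level of 14 skeletal muscle markers, in contrast, ranged from 209 to 3491 CPM in the control libraries and from 1137 to 10344 in the Cre libraries, with replicate 3 the highest in both groups. Low Lyz2 reads came with the Cre genotype in every Cre mouse, so effects of Lyz2 loss and of Ampkα1 deletion cannot be told apart. These mice are the only replicates, so each p-value here rests on 3 animals a group.

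All 10 genes were at a lower level in the Cre mice, and for all 10 each Cre library lay below each control library, an arrangement found in 11.4% of the 14261 genes tested. In lists described below, it held for 12 of 23 other resident macrophage genes, 9 of 20 core macrophage genes and 1 of 22 other scavenger receptors. The reverse, each Cre library above each control library, held for 1, 3 and 6 genes of these lists. The median log2 fold change of the 10 was -0.88, compared with -0.002 over all genes tested. The differences were largest for Marco, Timd4, Folr2 and F13a1, and smallest for Siglec1 and Stab1. Of the 10, 3 passed the threshold over all genes (Marco, F13a1 and Folr2), whereas 0.568% of all genes tested were called lower by edgeR's quasi-likelihood test. Since the genes were chosen on this contrast, nothing is read from that count. With the replicate number as a block, which gave 0.252% of genes called lower, 3 were again called, with Lyve1 in place of Marco, and DESeq2 called 9, all but Fcna, against 2.65% of genes called lower. The edgeR count was 0 without control 1 or control 2, 1 without control 3 or Cre 1, 2 without Cre 3 and 4 without Cre 2. Over all genes and in either direction, edgeR called 128 genes with all libraries in. It called 10 without control 1, 8 without control 2, 24 without control 3, 12 without Cre 1, 60 without Cre 3 and 276 without Cre 2. F13a1 was not called with upper-quartile scaling or with a skeletal muscle score in the model. In whole tissue, fewer macrophages carrying these genes and less RNA of them per cell cannot be told apart.

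**Figure D1:**
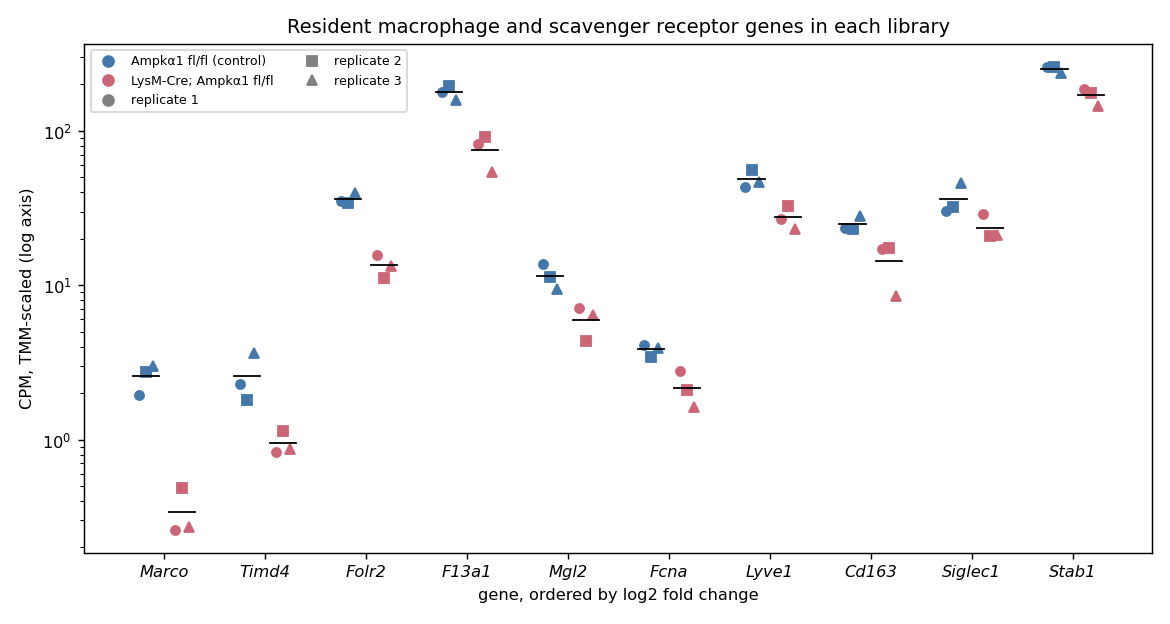
CPM (log axis) of the 10 genes in each of the 6 libraries, with the control mice in blue, the Cre mice in red, a marker shape for each replicate number and a black bar for the group mean (n = 3). In every gene all 3 red points lie below all 3 blue points, with the widest gap in proportion for Marco (2.57 against 0.339 CPM on average).

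Among the scavenger receptors proper, Marco (chr1:120474538-120505024, minus strand, GRCm38.p6 throughout) encodes a class A receptor that binds bacteria and particles. It had few reads and the largest difference of the 10, with 37, 50 and 55 reads in the control libraries and 5, 9 and 5 in the Cre libraries. These correspond to 2.57 ± 0.548 CPM (SD, n = 3) and 0.339 ± 0.128, a log2 fold change of -2.90 (SE 0.34), or 7.45-fold lower. Marco had fewer than 10 reads in each Cre library, so it entered the comparison through the control libraries. The other 9 genes had at least 10 reads in all 6 libraries.

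Cd163 (chr6:124304636-124330529, plus strand) encodes the receptor that takes up haemoglobin bound to haptoglobin. Its level was 23.6, 23.2 and 27.9 CPM in the control libraries and 17.2, 17.5 and 8.49 in the Cre libraries. Cre 3 stood below the other Cre libraries, and it was also the library with the most muscle RNA. The log2 fold change was -0.79 (SE 0.26). Stab1 (chr14:31139017-31168651, minus strand) encodes stabilin-1, which clears SPARC and other extracellular proteins and is also made by sinusoidal and lymphatic endothelium. It was the gene with the most reads of the 10, at 259, 258 and 236 CPM in the control libraries and 187, 177 and 145 in the Cre libraries. Its log2 fold change, -0.57 (SE 0.10), was the smallest of the set but had the smallest standard error.

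Lyve1 (chr7:110850607-110862953, minus strand) encodes a hyaluronan receptor found on lymphatic endothelium and on macrophages beside vessels. It was at 43.2, 55.9 and 47.0 CPM in the control libraries and at 26.8, 32.7 and 23.2 CPM in the Cre libraries. Replicate 2 was the highest in both groups, and the log2 fold change was -0.82 (SE 0.15). Timd4 (chr11:46810786-46844333, plus strand), which encodes the phosphatidylserine receptor TIM-4, had 43, 33 and 66 reads in the control libraries and 16, 21 and 16 in the Cre libraries. Its log2 fold change was -1.43 (SE 0.33), and the standard error was about as wide as for Marco. Fcna, with 30 to 78 reads a library, also had few reads.

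Folr2 (chr7:101839988-101857190, minus strand) encodes folate receptor beta, a surface protein of macrophages. Its level was 35.0, 33.9 and 39.4 CPM in the control libraries and 15.7, 11.2 and 13.4 CPM in the Cre libraries. The groups were far apart in comparison with their spread (36.1 ± 2.91 against 13.4 ± 2.28 CPM, SD, n = 3), and the log2 fold change was -1.42 (SE 0.13), or 2.68-fold lower.

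Siglec1 and Mgl2 encode lectins of the macrophage surface. Siglec1 (chr2:131067801-131086778, minus strand) encodes sialoadhesin, a receptor for sialic acid whose gene responds to interferon. It was at 30.4, 32.2 and 46.0 CPM in the control libraries and at 28.8, 21.0 and 21.2 CPM in the Cre libraries. Cre 1 lay just 1.64 CPM below control 1, the lowest control library, and the log2 fold change was -0.61 (SE 0.19). Mgl2 (chr11:70130125-70137542, plus strand) encodes CD301b, a galactose-type lectin. It was at 13.7, 11.3 and 9.43 CPM in the control libraries and at 7.09, 4.38 and 6.38 CPM in the Cre libraries, a log2 fold change of -0.94 (SE 0.22). One Mgl2 transcript was listed a second time with the same TPM in every library, and without the second listing the log2 fold change was -0.87. Clec10a, a close relative next to Mgl2, could share its reads.

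F13a1 and Fcna encode secreted proteins. F13a1 (chr13:36867178-37050244, minus strand) encodes the A subunit of coagulation factor XIII, a transglutaminase that crosslinks fibrin and is made by macrophages and megakaryocytes. It was at 179, 196 and 158 CPM in the control libraries and at 81.9, 91.4 and 53.9 CPM in the Cre libraries. The lowest control library was thus 67.0 CPM above the highest Cre library, and the log2 fold change was -1.23 (SE 0.19), or 2.35-fold lower. Fcna (chr2:25624665-25635440, minus strand) encodes ficolin A, a lectin of the complement system. It was at 4.13, 3.44 and 3.95 CPM in the control libraries and at 2.76, 2.11 and 1.62 CPM in the Cre libraries. Its log2 fold change was -0.82 (SE 0.23).

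Cre 3 was the lowest of the Cre libraries for 5 of the 10 genes (Cd163, Stab1, Lyve1, F13a1 and Fcna), Cre 2 for 3 and Cre 1 for 2. Control 3, the control library with the most muscle RNA, was the highest control library for 5 of the 10. With a skeletal muscle score in the model, the median log2 fold change of the 10 was -0.85, and it lay between -1.06 and -0.85 when each library was left out in turn.

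Levels between genes were compared per transcript length, as the authors' TPM summed over transcripts. In the control mice, F13a1 (99.4 ± 8.93 TPM, SD, n = 3) and Folr2 (94.6 ± 9.22) stood highest with overlapping ranges, at about the level of Cd68 (94.1 ± 12.9) and below Csf1r (140.1 ± 9.82). Stab1 (65.1 ± 3.29), Lyve1 (42.3 ± 4.70) and Mgl2 (18.2 ± 3.43) followed, each separate from its neighbours. The place of Mgl2 rests on the transcript listed a second time, since with that transcript counted once Mgl2 was at 11.4 ± 1.78 TPM in the control mice and 6.47 ± 0.873 in the Cre mice, and its control range overlapped that of Cd163. Cd163 (12.2 ± 1.29), Siglec1 (9.66 ± 2.35) and Fcna (7.68 ± 0.833) overlapped from one to the next, and Timd4 (3.47 ± 1.26) and Marco (3.18 ± 0.673) were lowest and overlapped. In the Cre mice, Stab1 (44.1 ± 6.39 TPM), F13a1 (42.7 ± 12.0) and Folr2 (35.5 ± 5.44) had overlapping ranges, and the order of the other 7 was as in the control mice, again with Mgl2 above Cd163 only as deposited. With the second listing included, the 10 genes together held 357, 356 and 355 TPM in the control libraries and 193, 189 and 145 TPM in the Cre libraries. The sum was therefore nearly the same in the 3 control mice, and lower in each Cre mouse.

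**Figure D2:**
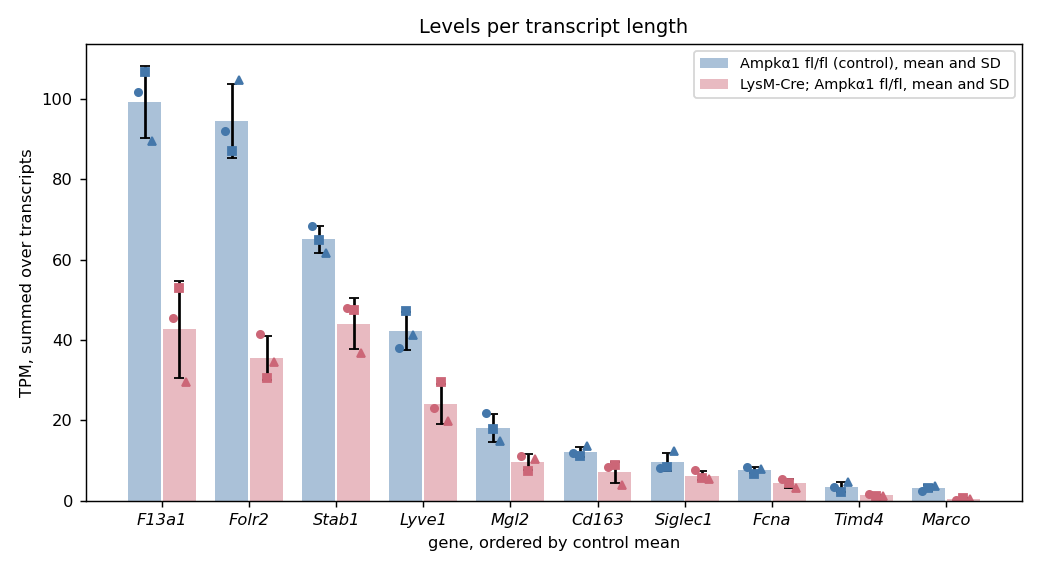
TPM summed over the transcripts of each gene (Mgl2 with its second listing), on a linear axis from 0, with bars for the group mean, error bars for the SD (n = 3) and points for single libraries (blue, control mice; red, Cre mice). F13a1 and Folr2 lead in the control mice at 99.4 and 94.6 TPM and stand near Stab1 in the Cre mice at 42.7 and 35.5 TPM.

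A single transcript carried most of the level of several genes. For F13a1, 99.65% of the TPM in the control mice came from transcript NM_028784, and for Folr2 84.0% came from NM_008035, compared with 85.6% in the Cre mice. Cd163 was spread over 4 transcripts, with 66.7% of the control level and 66.0% of the Cre level in NM_053094. In Fcna, NM_007995 carried 96.6% of the control level and 64.5% of the Cre level. This difference came from 1 library, since Cre 1 had 4.34 TPM in another Fcna transcript that was listed at 0 in the other 5.

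Set against Csf1r in the same library, the 10 genes split. Csf1r itself was at 239, 244 and 268 CPM in the control libraries and at 171, 184 and 128 CPM in the Cre libraries (log2 fold change -0.63, SE 0.13, edgeR adjusted p = 0.0933). Relative to it, Marco, Timd4, F13a1 and Folr2 were lower in each Cre library than in each control library. The 11.4% of genes given above is for CPM, and no share over all genes was computed for ratios to a reference. Counts of genes that stood apart in such ratios are thus descriptions without a background. Marco had 0.82, 1.12 and 1.13 reads per 100 reads of Csf1r in the control libraries and 0.15, 0.26 and 0.21 in the Cre libraries. Folr2 had 14.6, 13.9 and 14.7 in the control libraries, close to one another, and 9.20, 6.07 and 10.5 in the Cre libraries. F13a1 had 74.9, 80.4 and 59.2 in the control libraries and 47.8, 49.6 and 42.1 in the Cre libraries. The groups overlapped for the other 6, and the mean log2 ratio was higher in the Cre mice by 0.077 for Stab1 and by 0.045 for Siglec1. Stab1, with 108, 106 and 88.3 reads per 100 of Csf1r in the control libraries and 109, 96.2 and 113 in the Cre libraries, hence differed by less than the spread of the replicates. The median difference over the 10 genes was -0.26 on the log2 scale.

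Set against Cd68, all 10 were lower without overlap, again with no share over all genes to set beside that count. The median difference was -1.15. Cd68 was at 46.8, 37.6 and 46.7 CPM in the control libraries and at 59.2, 43.3 and 53.8 CPM in the Cre libraries (log2 fold change 0.25, SE 0.14, edgeR adjusted p = 0.459), so its groups overlapped. Folr2 had 74.7, 90.0 and 84.4 reads per 100 reads of Cd68 in the control libraries and 26.6, 25.9 and 24.9 in the Cre libraries, a narrow range in the latter. Siglec1, whose mean ratio to Csf1r was slightly higher, had 65.0, 85.6 and 98.6 in the control libraries and 48.6, 48.5 and 39.4 in the Cre libraries. How many of the 10 stood apart thus changed with the reference.

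The last reference was the mean log2 read count of 20 core macrophage genes, among them Csf1r and Cd68. Expressed as log2 CPM, their mean was 5.80, 5.82 and 5.77 in the control libraries and 5.79, 5.73 and 5.53 in the Cre libraries. Counted from the lowest log2 fold change, Csf1r ranked 1 and Cd68 18 of these 20, and the extremes were -0.63 for Csf1r and 0.57 for Mpeg1. Relative to the core mean, all 10 genes were lower without overlap, likewise with no share over all genes, and the median difference was -0.79. Stab1 differed by -0.46 and Siglec1 by -0.49, the 2 smallest differences, and Marco by -2.75. None of the 20 core genes passed the threshold in edgeR, whereas 8 lower and 3 higher genes had an unadjusted p under 0.05 and DESeq2 called 4. Over all genes tested, 8.55% were lower and 5.97% higher at an unadjusted p under 0.05, and DESeq2 called 4.77%, the background for such counts here and below. Adgre1, which encodes the macrophage marker F4/80, came closest (log2 fold change -0.52, SE 0.08, edgeR adjusted p = 0.0508).

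**Figure D3:**
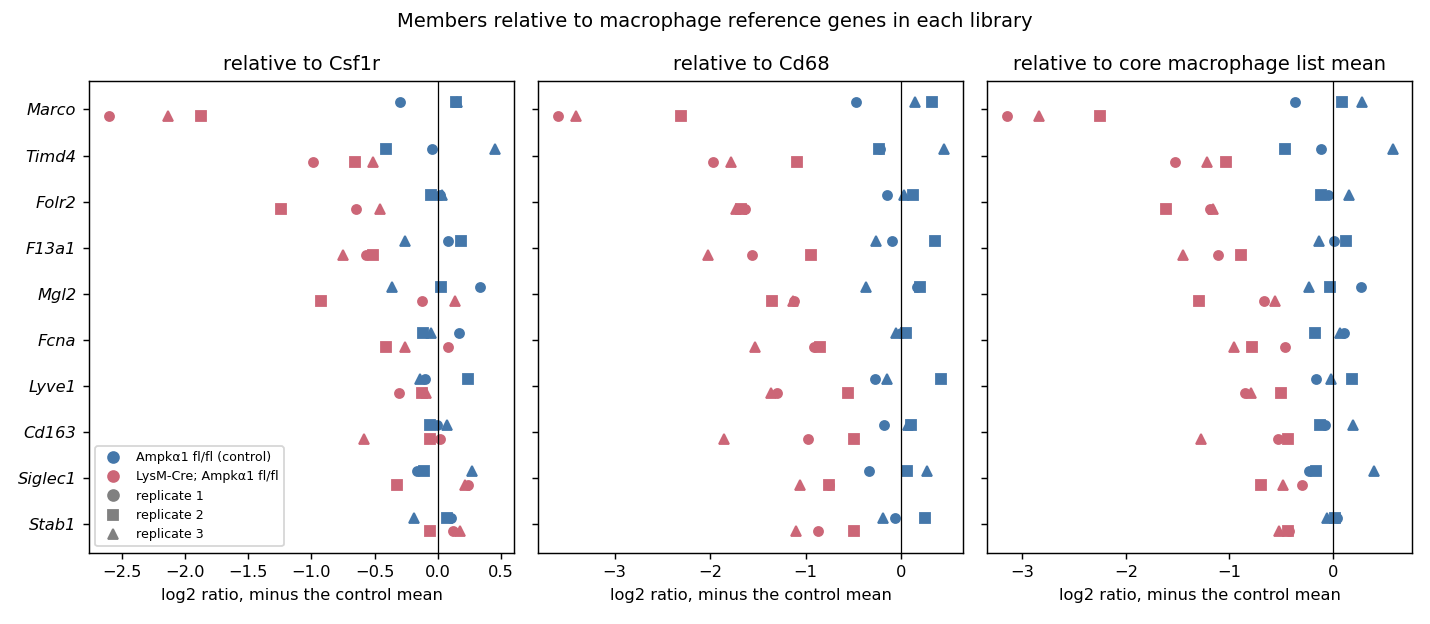
Log2 ratio of each of the 10 genes to Csf1r, to Cd68 and to the mean of 20 core macrophage genes in the same library, drawn as the distance from the control mean (vertical line), with blue for the control mice, red for the Cre mice and a shape for each replicate number. Red and blue points overlap for 6 genes in the Csf1r panel and for none in the other 2 panels.

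Further genes of the same kind were taken from lists written with earlier results of these data known. Of 28 other resident macrophage genes, 23 were tested, 21 had a lower and 2 a higher level in the Cre mice, with a median log2 fold change of -0.45. Of these, 4 fell and 1 rose in edgeR's quasi-likelihood test, against 0.568% of all genes called lower and 0.33% called higher. Cd209f and Cd209g, lectins related to DC-SIGN, fell by 2.38 (SE 0.16, edgeR adjusted p = 0.00446) and 2.87 (SE 0.45, edgeR adjusted p = 0.0455) on the log2 scale. Cd209g had 34, 28 and 41 reads in the control libraries but 8, 4 and 2 in the Cre libraries, so like Marco it entered the comparison through the control libraries. Cd209f was at 7.88, 7.59 and 8.44 CPM in the control libraries and at 1.72, 1.35 and 1.51 CPM in the Cre libraries, and was called whichever library was left out. Clec10a, the relative of Mgl2, fell by 1.32 (SE 0.14, edgeR adjusted p = 0.0174), and Cbr2, a carbonyl reductase, fell by 1.26 (SE 0.12, edgeR adjusted p = 0.0134). Slc40a1, which encodes the iron exporter ferroportin, rose by 0.74 (SE 0.11, edgeR adjusted p = 0.043). Mrc1, the mannose receptor often found with Lyve1 and Folr2, was at 237, 243 and 197 CPM in the control libraries and at 128, 160 and 93.8 CPM in the Cre libraries, and was named after its values were seen (log2 fold change -0.83, SE 0.19, edgeR adjusted p = 0.115). With the replicate block the calls of Cd209f and Cbr2 stayed, whereas the edgeR adjusted p was 0.0525 for Clec10a, 0.0611 for Slc40a1 and 0.0848 for Cd209g. When each library was left out in turn, Cbr2 and Clec10a were called in 2 of 6 fits, Slc40a1 in 1 and Cd209g in 0. Without control 1, control 2, control 3 or Cre 1 there was 1 call in this list and the 3 other macrophage lists together, without Cre 3 there were 3, and without Cre 2 there were 6. The calls over all genes in the same fits are given above.

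Among 22 scavenger receptors tested outside the 10, 10 had a lower and 12 a higher level, and the median log2 fold change was 0.08. None was called by edgeR, whereas 2 lower and 5 higher genes had an unadjusted p under 0.05 and DESeq2 called 4. Cxcl16, a membrane-bound chemokine that takes up oxidised lipoprotein, was at 19.05, 16.0 and 17.2 CPM in the control libraries and at 26.8, 27.9 and 22.2 CPM in the Cre libraries (log2 fold change 0.56, SE 0.11, edgeR adjusted p = 0.0871), the opposite direction to Marco. Stab2, the partner of Stab1 in sinusoidal endothelium, was under 1 CPM in every library. Among 25 transcription factors of macrophages tested, 14 were lower and 11 higher, with a median of -0.01. None was called by edgeR, 8 lower and 4 higher ones had an unadjusted p under 0.05 and DESeq2 called 6. Irf4, at 5.13, 4.04 and 6.47 CPM in the control libraries and 2.24, 2.49 and 2.38 CPM in the Cre libraries, had the smallest p (log2 fold change -1.14, SE 0.21, edgeR adjusted p = 0.0721), followed by Cebpa (-0.59, SE 0.12, edgeR adjusted p = 0.0914).

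**Figure D4:**
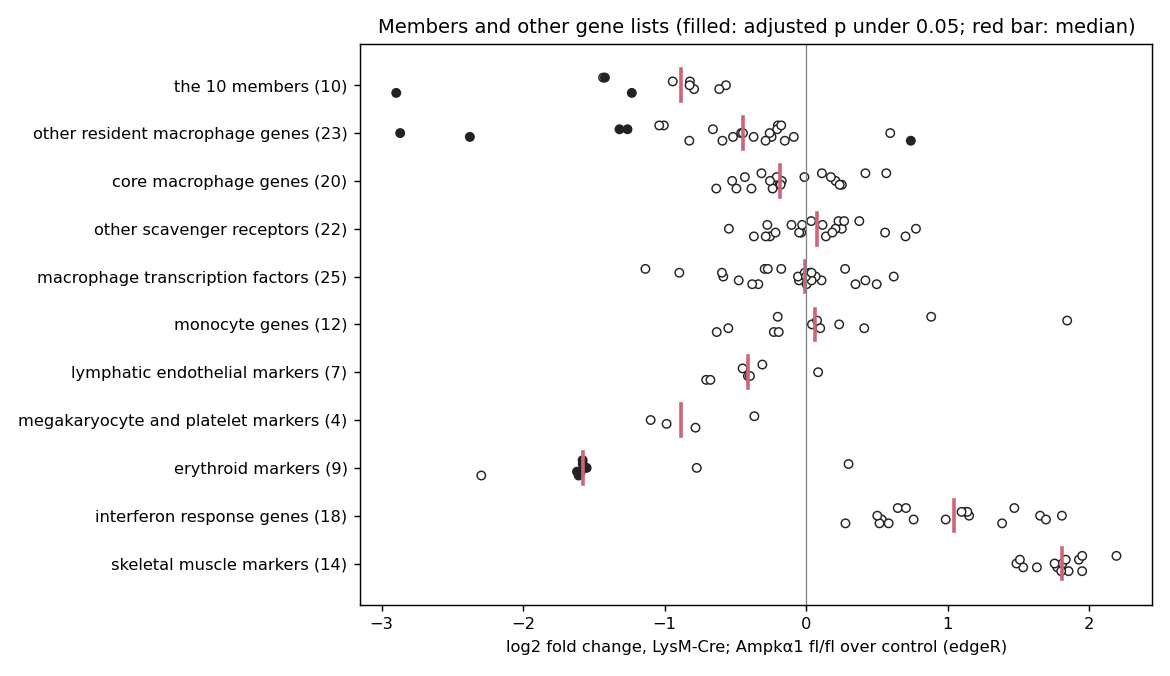
Log2 fold change (Cre mice over control mice, edgeR) of the 10 genes and of the tested genes of 10 other lists, 1 point a gene, with filled points for an edgeR adjusted p under 0.05 and a red bar for the median of each list. The 10 genes (median -0.88) lie left of 0 throughout, as do 21 of 23 other resident macrophage genes, whereas other scavenger receptors spread around 0 (median 0.08).

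Of the ligands of the 10 genes, SPARC, which stabilin-1 takes up, had a log2 fold change of 0.01 (SE 0.05), and Hp, the haptoglobin that Cd163 binds, one of 0.23 (SE 0.25). Of 17 ligands and partners tested, 4 fell in edgeR, against 0.568% of all genes called lower. All 4 were globin genes (Hba-a1, Hba-a2, Hbb-bs and Hbb-bt), whose products Cd163 clears with haptoglobin. Hbb-bt fell by 1.58 (SE 0.17, edgeR adjusted p = 0.0168) and Hba-a1 by 1.61 (SE 0.21, edgeR adjusted p = 0.0309), and the near-identical globin copies could share reads. Globins are made by red blood cell precursors, and 6 of 9 erythroid markers tested fell, against the same 0.568%. These were the same 4 globin genes, counted in both lists, with Alas2 and Slc4a1. With the replicate block 1 of the 6 (Hbb-bs) was called. When each library was left out in turn, Hbb-bt was called in 3 of 6 fits, Hbb-bs in 2, Hba-a1 and Alas2 in 1, and Hba-a2 and Slc4a1 in 0. Their summed level was 2028 to 3005 CPM in the control libraries and 702 to 1016 CPM in the Cre libraries. Of the 9 tested, 8 were thus lower in the Cre mice, as the 10 genes were, and Tfrc was higher (log2 fold change 0.30, SE 0.22). The part of this list in the differences of the 10 genes was not tested.

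Several of the 10 genes are also expressed outside macrophages, and the markers of those cells are set beside them here. For Lyve1 and Stab1, 6 of 7 lymphatic endothelial markers were lower, with a median log2 fold change of -0.41. Of the 7, 0 were called by edgeR (4 with an unadjusted p under 0.05, 4 by DESeq2). Their sum was 254 to 265 CPM in the control libraries and 185 to 228 CPM in the Cre libraries, and Prox1, the defining factor of that cell type, was at 14.3, 12.2 and 10.3 CPM and at 7.25, 7.46 and 7.89 CPM (log2 fold change -0.71, SE 0.14, edgeR adjusted p = 0.086). For Stab1, the sinusoidal and blood endothelial markers had a median of -0.16 (7 of 7 tested lower, 0 called by edgeR, 2 with an unadjusted p under 0.05, 1 by DESeq2), with sums of 587 to 628 and 525 to 592 CPM. For F13a1, 4 of 4 megakaryocyte and platelet markers tested were lower, with a median log2 fold change of -0.88. Of the 4, 0 were called by edgeR or DESeq2 (2 with an unadjusted p under 0.05), with sums of 12.1 to 14.8 and 6.11 to 10.01 CPM. The part of these cells in the differences of Lyve1, Stab1 and F13a1 was not tested. For Timd4, Siglec1 and Marco, which macrophages of lymph nodes express, markers of B cells and lymph nodes summed to 5.50 to 6.06 CPM and 4.59 to 5.42 CPM. Cr2, Madcam1 and Pax5 were at 3 reads or fewer in every library, and 2 of the 10 markers were tested. Cd79b was lower (log2 fold change -0.80, SE 0.23, edgeR adjusted p = 0.177) and Cd22 higher (0.29, SE 0.23, edgeR adjusted p = 0.631). Neither was called by edgeR or DESeq2, and 1 had an unadjusted p under 0.05. For Mgl2, which dendritic cells also express, 4 of 8 dendritic cell markers were lower, 4 were higher and 0 were called by edgeR or DESeq2 (1 with an unadjusted p under 0.05), with sums of 20.1 to 23.1 and 17.0 to 26.0 CPM.

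Monocyte genes were listed for cells recruited from blood, but the list also holds Fn1 and Vcan, which encode matrix proteins. Fn1 was at 8176 CPM on average in the control mice and 10872 CPM in the Cre mice. The list therefore does not measure recruited monocytes alone. Of 12 tested, 5 were lower and 7 higher, with a median of 0.06 and 0 called by edgeR (2 lower and 1 higher with an unadjusted p under 0.05, 1 by DESeq2). The smallest p-values were those of Fn1 (log2 fold change 0.41, SE 0.10, edgeR adjusted p = 0.126), Vcan (-0.63, SE 0.20, edgeR adjusted p = 0.203) and Ccr2 (-0.55, SE 0.20, edgeR adjusted p = 0.262). Siglec1 was lower while all 18 interferon response genes tested were higher in the Cre mice, with a median of 1.04 and 0 called by edgeR (14 with an unadjusted p under 0.05, 12 by DESeq2). Iigp1, an interferon-induced GTPase, had the smallest p of these (log2 fold change 1.81, SE 0.30, edgeR adjusted p = 0.053), and the summed level of the list was 265 to 298 CPM in the control libraries and 354 to 651 CPM in the Cre libraries.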

How the data were processed

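Whole repair tissue RNA of 6 mice was sequenced on the BGISEQ platform. For each mouse and each of 65053 RefSeq transcripts, the files deposited hold an estimated count (raw, not always whole) and a TPM value, which the authors scaled to transcript length. The aligner and counter are not given in the sources used here, and the submitters' processing notes name the build GRCm38.p6. The supplementary methods were not used. Left aside were 12 further per-sample columns and 8 of group averages.

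Adding up the estimated counts by gene and rounding them gave 18099 genes, 18049 (99.72%) with a symbol through NCBI Gene identifiers. TMM factors, filterByExpr and the quasi-likelihood F test of edgeR 4.0.16 (R 4.3.3) were applied to 14261 genes, with Benjamini-Hochberg adjustment over all of them and a threshold of 0.05. Standard errors are the log2 fold change divided by the square root of F. Ratios used log2 read counts with 0.5 reads added, since library scaling cancels within a library. The calculations were tested on simulated counts. Groups and replicate numbers came from the labels. Deviations from the group means of same-numbered libraries correlated at 0.184, 0.118 and 0.31 over genes. Differently numbered libraries were not correlated, so these values cannot show whether the numbers pair the libraries. The main fit held no block, and values with the replicate block are given where a call changed. Alternatives were upper-quartile and RLE scaling, DESeq2 1.42.0, 2 other filters, the block, a skeletal muscle score, other references and leaving out each library. Leaving out transcripts listed at a second position was added after seeing the data. The members and lists were chosen with earlier results of these data known. Named were all members, the references, the targeted and Cre locus genes, and in each list up to 5 called genes or, with none called, up to 3 with the smallest p. Some further genes, such as Sparc, Hp, Stab2, Mpeg1, Mrc1 and Tnmd, were named outside this rule. Promoter sequences are from RefSeq. At these totals, genes under about 10 reads, such as Marco in the Cre mice, are known only coarsely.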

Additional observations from a re-analysis of the deposited data

How the results depend on the processing

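The direction of all 10 genes (lower in the Cre mice) held in every setting that refitted the counts: 2 other scalings, DESeq2, 2 other filters on low counts, the replicate block, a skeletal muscle score, second listings left out and each library left out. It turned only relative to Csf1r, for Stab1 (0.077) and Siglec1 (0.045). Of 169 alternative values of single genes, 167 were below 0. The median log2 fold change of the 10 was -0.26 relative to Csf1r and -1.15 relative to Cd68, and between -1.06 and -0.85 with a library left out. How many genes passed the threshold depended on the test and on single libraries. Over all genes it was 128, and 680 with DESeq2, 47 with the replicate block, 75 with the muscle score and between 8 and 276 with a library left out. Among the 10 genes it was 3, and 9 with DESeq2 and between 0 (without control 1 or control 2) and 4 (without Cre 2). In the 4 other macrophage lists it was 5, and 26 with DESeq2, 2 with the replicate block and between 1 and 6 with a library left out. Pairing the libraries by number ended the call of Marco and added that of Lyve1, and upper-quartile scaling and the muscle score each ended that of F13a1. Other alternatives left these counts within 1.5 times. The cause of these shifts was not tested, other than that a left-out library leaves 2 animals in its group. Marco could not be fitted with at least 10 reads in every library. Counting its second listing once moved the control level of Mgl2 from 18.2 to 11.4 TPM. Depth limits Marco and Timd4 most, with 5 to 66 reads a library.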
